A study of Mus musculus with 6 samples.

Results

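The genes described here encode the subunits of eIF4F, the complex that brings ribosomes to the capped end of messenger RNA, and the factors that work with it. The 10 genes, Eif4e, Eif4ebp1, Eif4g1, Eif4g2, Eif4g3, Eif4a1, Eif4a2, Eif4b, Eif4h and Eif5b, were taken by exact gene name from the deposited gene table, which lists 13932 genes, and from the deposited junction table, in which they hold 229 of 151811 splice junctions. They were chosen by gene family with the S34F against WT gene counts and exon shares of these libraries known, and so count as selected on those values, and their levels and shares in that contrast are given as a description. The calls and p-values printed for them come from fits over all features in this same contrast, and nothing is read from them. RNA came from common myeloid progenitors, a bone marrow cell with granulocyte, monocyte, erythroid and platelet descendants, sorted as lineage-negative cells with c-Kit and CD34 but without Sca-1 or Fcγ receptor on the surface. The S34F group carried U2AF1(S34F)/rtTA and the WT group U2AF1(WT)/rtTA, so both groups carried a U2AF1 transgene induced through rtTA, and the S34F mutation was the labelled difference. Transgenic marrow had engrafted in recipient mice for more than 6 weeks before 5 days of doxycycline chow. Each group has 3 libraries, each made from the pooled marrow of 4 to 5 mice. Whether pools shared a marrow donor is not given, so p-values measure the spread between these pools. The genotype entry in the sample characteristics reads S34F for all 6 libraries, and the groups follow the sample titles and column names instead.

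In eIF4F, eIF4E binds the cap, an eIF4G protein serves as the scaffold, and eIF4A is an RNA helicase that unwinds the leader of the messenger. eIF4B and eIF4H stimulate the helicase, 4E-BP1 competes with eIF4G for eIF4E when mTOR is inactive, and eIF5B is the GTPase that joins the large ribosomal subunit at the end of initiation. U2AF1 contacts the AG of the acceptor site during spliceosome assembly, and the base just before that AG is the position at which the S34F protein is known to prefer C over T. A spliced messenger with a stop codon well upstream of its last exon junction is a typical substrate of nonsense-mediated decay.

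The S34F libraries held 46827909 to 51862032 gene counts and 41003848 to 44589528 junction counts, against 54727541 to 94562984 gene counts and 46491099 to 82730420 junction counts in the WT libraries. Replicate 1 of both groups came from male cells and the other replicates from female cells, by Ddx3y and Xist counts. Differences between the 2 male and within the 4 female libraries are therefore given for some of the genes and choices below. Reads of U2af1, at 119, 136 and 122 CPM, the gene counts scaled to library size, in S34F and 105, 125 and 128 CPM in WT, do not separate transgene from endogenous gene and so do not check the labels. Of the sort markers, Kit had 149 to 192 CPM in S34F and 92.4 to 209 CPM in WT. Cd34 had 695 to 868 CPM in S34F and 796 to 904 CPM in WT. Ly6a, which encodes Sca-1, stayed under 2 CPM. Fcgr3, an Fcγ receptor gene, had 33.4 to 78.1 CPM in S34F and 38.8 to 111 CPM in WT. Markers of dendritic cells and macrophages summed to 182.3 to 247.9 CPM in S34F and 324.5 to 539.5 CPM in WT libraries, with 9 of 11 genes lower in S34F. Erythroid markers summed to 14.8 to 18.5 CPM in S34F and 20.6 to 31.9 CPM in WT, with 5 of 5 lower, and megakaryocyte markers to 85.5 to 113 CPM in S34F and 124 to 167 CPM in WT, with 2 of 4 lower. Most of the megakaryocyte sum was 1 gene, Itga2b, at 94.8, 69.8 and 100 CPM in S34F, against 150, 113 and 132 CPM in WT. Pf4, Gp9 and Vwf had at most 7.55 CPM and overlapped between the groups. The sums of neutrophil, lymphoid (5 of 8 markers in the gene table) and early progenitor markers overlapped between the groups. No marker of the dendritic cell and macrophage, erythroid or megakaryocyte lists was at 0 in any library. Mitochondrially encoded genes took 2.44 to 2.78% of the counts in S34F and 1.27 to 2.04% in WT. The part of these differences in the results below was not tested. In bulk RNA, fewer cells of a type and less RNA per cell cannot be told apart.

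By the median, the initiation genes differed in level about as much as all genes did. Their largest difference in splicing was at a 140 nt exon of Eif4a2. Of the 10 genes, 7 had a higher mean in S34F and 3 a lower one, with a median log2 fold change of 0.14 against -0.01 over all 13905 genes tested. Their median absolute log2 fold change was 0.15, against 0.17 over all genes. The CPM of the groups did not overlap for 3 of the 10, Eif4g1, Eif4h and Eif5b, where this held for 15.6% of all genes. edgeR called 0 of the 10 genes at an adjusted p under 0.05, where it called 0% of all genes, and 2 of the 10, Eif4e and Eif5b, had an unadjusted p under that value, as did 1265 of the 13905 genes. A p that misses the threshold does not show that levels were the same. DESeq2 called 1 of them, Eif5b, where it called 0.69% of all genes.

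**Figure D1:**
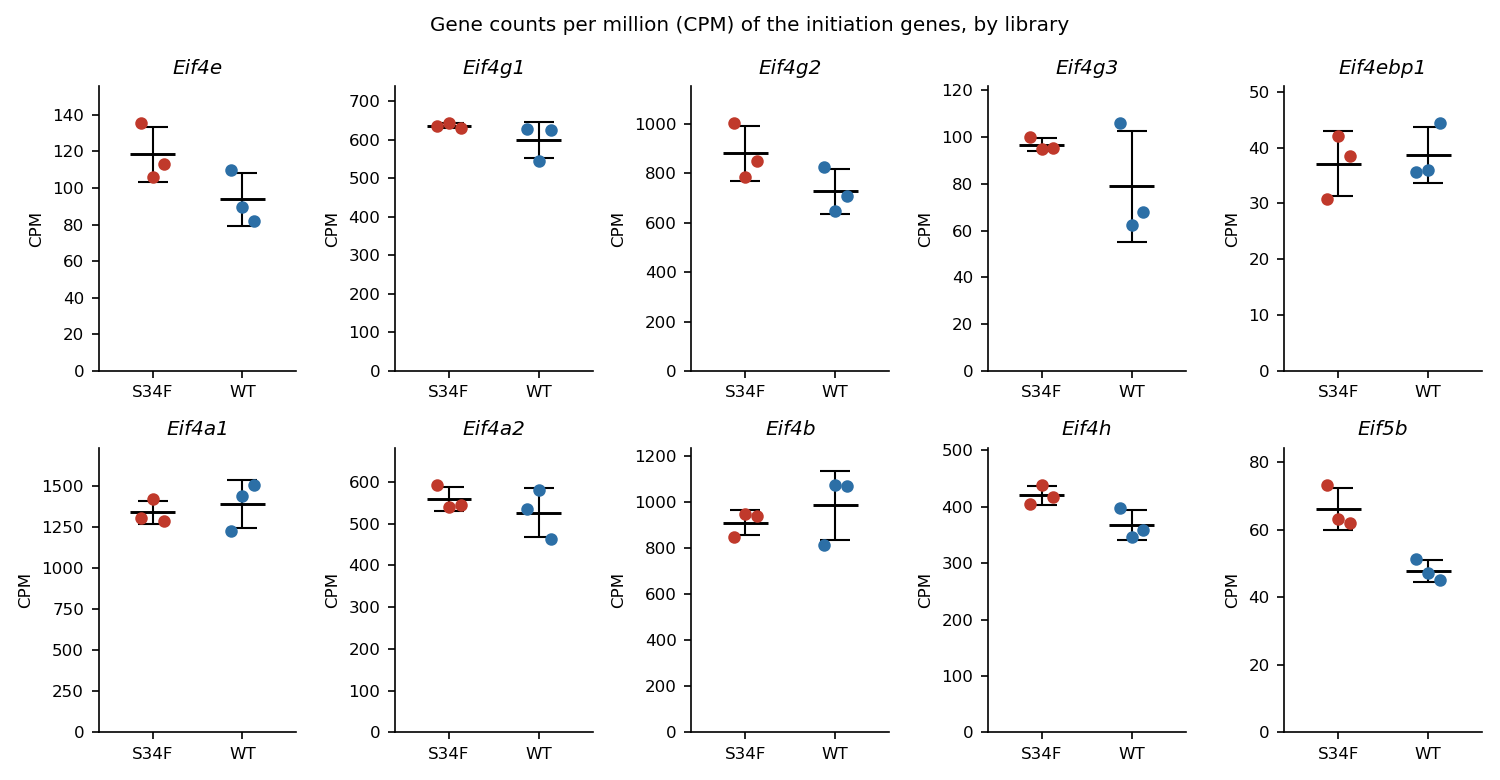
Counts scaled to library size (CPM) of the 10 genes in each library, S34F in red and WT in blue, with the mean (thick bar) and SD (whiskers) of 3 libraries per group. The groups are fully separated for Eif5b, and narrowly for Eif4h and Eif4g1; Eif4g3 has 1 WT library, replicate 1, above all S34F libraries.

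Eif4e, the cap-binding subunit (ENSMUSG00000028156, chr3:138189155-138220563, plus strand, mm9 as for all positions here), had 135, 106 and 113 CPM in S34F libraries, against 110, 89.6 and 81.8 CPM in WT libraries. The means were 118 ± 15.2 and 93.8 ± 14.4 CPM (SD, n = 3 each), and S34F replicate 2 lay below WT replicate 1. The log2 fold change was 0.34 with a standard error of 0.14. Eif4ebp1, its inhibitor (ENSMUSG00000031490, chr8:28370799-28386128, plus strand), had 30.8, 42.1 and 38.6 CPM in S34F, against 35.6, 36.0 and 44.4 CPM in WT. These groups were interleaved, with S34F libraries averaging 37.1 ± 5.79 CPM and WT libraries 38.6 ± 4.95 CPM. The log2 difference was -0.21 between the male libraries and 0.01 within the female ones.

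Of the scaffold genes, Eif4g1 (ENSMUSG00000045983, chr16:20668386-20692957, plus strand) had 634, 642 and 631 CPM in S34F, against 626, 544 and 625 CPM in WT. The groups did not overlap, but WT replicates 1 and 3 lay just below the S34F libraries and WT replicate 2 well below, at means of 636 ± 5.81 and 598 ± 47.3 CPM. Eif4g2 (ENSMUSG00000005610, chr7:118211499-118226544, minus strand) encodes a scaffold that lacks the eIF4E-binding region, and had 1003, 787 and 852 CPM in S34F, against 826, 646 and 709 CPM in WT. Its means were 881 ± 111 and 727 ± 91.0 CPM, with S34F replicate 2 below WT replicate 1. Eif4g3, a paralog of Eif4g1 (ENSMUSG00000028760, chr4:137548937-137764423, plus strand), had 100.0, 94.8 and 95.6 CPM in S34F, against 106, 62.6 and 68.1 CPM in WT. WT replicate 1 stood apart from the other 2 WT libraries and above every S34F library. Its log2 fold change of 0.30 became 0.57 without that library, and within the female libraries the difference was 0.54, against -0.09 between the 2 male libraries.

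The helicase genes did not separate the groups. Eif4a1 (ENSMUSG00000059796, chr11:69480438-69485925, minus strand) had 1309, 1423 and 1289 CPM in S34F, against 1227, 1438 and 1510 CPM in WT, and Eif4a2 (ENSMUSG00000022884, chr16:23107517-23114209, plus strand) had 593, 539 and 545 CPM in S34F, against 535, 579.9 and 464 CPM in WT. In both genes the groups were interleaved, with log2 fold changes of -0.05 (SE 0.11) and 0.09 (SE 0.11). The Eif4a1 log2 difference was 0.09 between the male libraries and -0.12 within the female ones. Eif4a1 and Eif4a2 are close paralogs whose reads may be shared in part. Of the helicase partners, Eif4b (ENSMUSG00000058655, chr15:101904204-101927603, plus strand) had 847, 946 and 938 CPM in S34F, against 812, 1075 and 1071 CPM in WT, and Eif4h (ENSMUSG00000040731, chr5:135095747-135115218, minus strand) had 406, 439 and 417 CPM in S34F, against 398, 347 and 359 CPM in WT. The Eif4b log2 difference was 0.06 between the male libraries and -0.19 within the female ones. Every S34F library was above every WT library for Eif4h, with S34F replicate 1 close to WT replicate 1, and the difference was 0.28 on the log2 scale within the female libraries and 0.03 between the male ones.

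Eif5b (ENSMUSG00000026083, chr1:38054855-38112424, plus strand) had the largest fold change of the 10. It had 73.3, 63.01 and 62.0 CPM in S34F, against 51.4, 47.1 and 45.0 CPM in WT, with counts of 3829, 2921 and 3133 against 2837, 3345 and 4223. The groups were well apart, at 66.1 ± 6.23 and 47.8 ± 3.30 CPM (SD, n = 3 each), and the log2 fold change was 0.47 with a standard error of 0.11. The difference was 0.51 between the male libraries and 0.44 within the female ones. The DESeq2 call of Eif5b was lost when any library but WT replicate 1 was left out. Without WT replicate 1, DESeq2 called 18% of all genes and 6 of the 10. The authors' deposited table also lists Eif5b, with a log2 fold change of 0.42 and an adjusted p of 0.0477, in a table where 0.63% of genes pass that value. Eif5b overlaps Rev1 on the other strand, Eif4a2 overlaps Rfc4 and Eif4g3 overlaps 1700095J12Rik, and since the strand setting of the counting is not given in the sources used here, reads of these overlapping genes cannot be told apart.

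**Figure D2:**
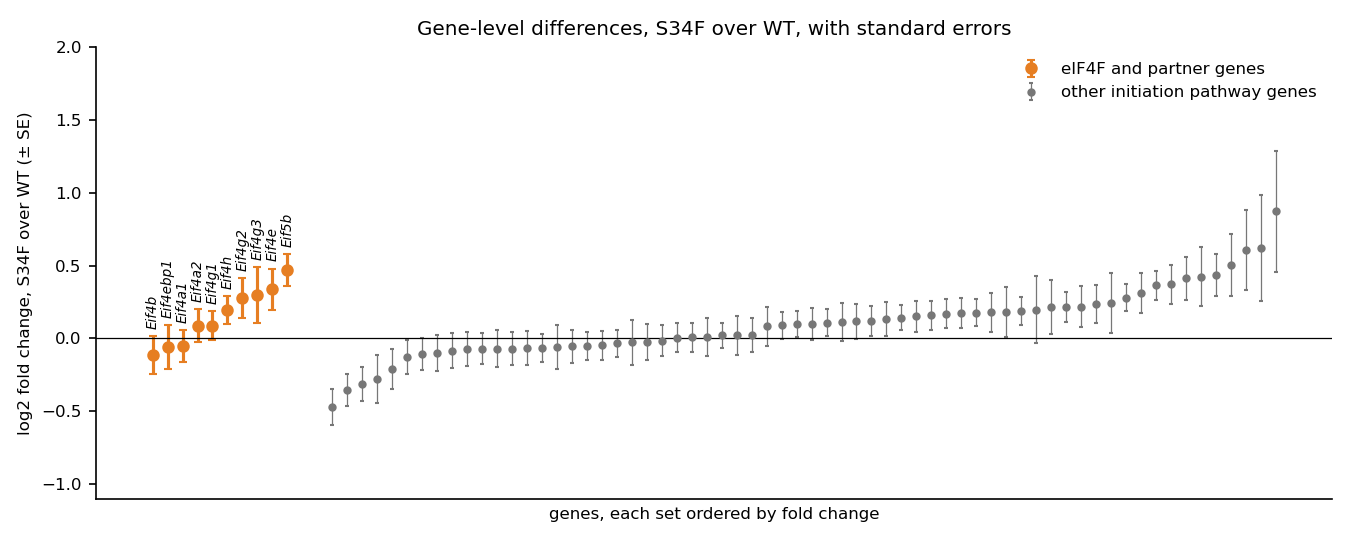
Fitted log2 fold change, S34F over WT, with its standard error, for the 10 genes (orange) and for 64 other genes of the initiation pathway (grey), each set in ascending order. Of the 10 genes, Eif5b at 0.47 is the highest and Eif4b at -0.11 the lowest.

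To compare genes with each other, a level that does not grow with transcript length was taken: the median junction CPM, the reads of a junction scaled to the library's junction total, over a gene's constitutive junctions. Eif4a1 stood far above the rest, at 219 ± 11.1 in S34F and 226 ± 21.9 in WT. Eif4b followed at 62.7 ± 5.65 in S34F and 70.2 ± 10.5 in WT. Eif4h had 52.4 ± 0.461 in S34F and 45.6 ± 3.75 in WT, Eif4g2 50.2 ± 5.01 in S34F and 39.8 ± 7.39 in WT, and Eif4a2 44.5 ± 0.811 in S34F and 43.0 ± 7.73 in WT. The order of these 3 was not settled, since Eif4g2 overlapped both others in each group. Eif4g1 had 26.8 ± 0.8998 in S34F and 24.7 ± 2.60 in WT, Eif4e had 21.6 ± 2.78 in S34F and 17.5 ± 3.07 in WT, and Eif4ebp1 had 12.2 ± 1.92 in S34F and 12.3 ± 1.23 in WT, with no overlap between neighbours in either group. Eif4g3, at 3.95 ± 0.0515 in S34F and 3.21 ± 1.16 in WT, and Eif5b, at 3.56 ± 0.393 in S34F and 2.53 ± 0.159 in WT, were the lowest and overlapped each other. On this scale Eif4a2 made up 16.9 ± 0.832% of the sum of both eIF4A genes in S34F and 16.0 ± 2.63% in WT, and Eif4g1 made up 87.1 ± 0.507% of the sum of Eif4g1 and Eif4g3 in S34F and 88.7 ± 2.76% in WT. Neither share separated the groups.

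The rest of the initiation pathway was read from a list of 65 genes, for the other initiation factors, their regulators and the mTOR branch, of which 64 were measured. In this list 41 genes had a higher and 23 a lower mean in S34F, with a median log2 fold change of 0.10, and the CPM of the groups did not overlap for 14, or 21.9%, where this held for 15.6% of all genes. edgeR called 0 of the 64 and DESeq2 called 0, where they called 0% and 0.69% of all genes. An unadjusted edgeR p under 0.05 was found for 6 with a higher and 3 with a lower mean in S34F. Over all 13905 genes, 1265 had such a p. Without WT replicate 1, edgeR called 11 of the 64, where it called 8.42% of all genes, and DESeq2 called 20, where it called 18%. The largest positive fold changes belonged to Eif2s2, a subunit of the factor that carries the initiator tRNA, to Eif4ebp2, another eIF4E inhibitor, and to Larp1, which binds messengers of the translation machinery. In all 3, WT replicate 1 lay with or near the S34F libraries and the other WT libraries well below. Larp1 had 263, 263 and 255 CPM in S34F, against 260, 115 and 139 CPM in WT, and Eif2s2 had 221, 125 and 179 CPM in S34F, against 165, 54.6 and 67.5 CPM in WT. Eif4ebp2 had 24.2, 23.3 and 25.9 CPM in S34F, against 27.0, 9.64 and 11.2 CPM in WT. The largest negative fold changes belonged to Mknk1, a kinase of eIF4E, at -0.47 (SE 0.13), to Eif4e3, a cap-binding paralog, at -0.36 (SE 0.11), and to Eif1, a factor in start codon selection, at -0.31 (SE 0.11). For these 3 genes every S34F library was below every WT library, with Mknk1 at 24.4, 28.8 and 28.3 CPM in S34F, against 33.1, 40.2 and 39.5 CPM in WT. The 5 genes whose log2 CPM followed that of Eif4a2 most closely over the 6 libraries, of 9165 genes with a mean of at least 10 CPM, were Rragc, Acadsb, Ankrd26, Prpf4b and Pik3ca, with Pearson's r of 0.974 to 0.991. This is a description of 6 libraries that share their scaling.

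Splicing was described by 3 kinds of choice: inclusion of a cassette exon, choice among acceptors that share a donor, and choice among donors that share an acceptor. A choice needed 20 reads in every library and at least 2% (cassette exons) or 1% (acceptors and donors) of reads for both forms. Among the 10 genes, 18 cassette exons, 61 acceptor choices and 50 donor choices passed. Eif4b and Eif4ebp1 had none. The shares of the groups did not overlap for 8 of the 18 exons, where this held for 19.3% of all 8595 exons, for 15 of the 61 acceptor choices (17% of all) and for 12 of the 50 donor choices (14.8% of all). The share differed by 5 points or more for 5 exons (26.4% of all exons), 7 acceptor choices (20.1% of all) and 4 donor choices (19.2% of all). All of these exons and donor choices belong to Eif4a2, and many of them count the same reads. edgeR called 0 of the 129 choices, where it called 0% of exons, 0% of acceptor choices and 0.00997% of donor choices, and 22 of the 129 had an unadjusted p under 0.05. These were 6 of the 18 exons, where 876 of all 8595 exons had such a p, 8 of the 61 acceptor choices (2227 of all 29709) and 8 of the 50 donor choices (1927 of all 30084). DESeq2 called 2 exons, both of Eif4a2, where it called 1.24% of exons, and 4 acceptor choices (1.27% of all) and 5 donor choices (0.804% of all), from Eif4a2, Eif4e and Eif4g1. In the authors' deposited table of single junctions, 3 of the 229 junctions pass an adjusted p of 0.05, where 0.34% of all junctions do: a skipping junction each of Eif4g1, Eif4a2 and Eif4e.

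**Figure D3:**
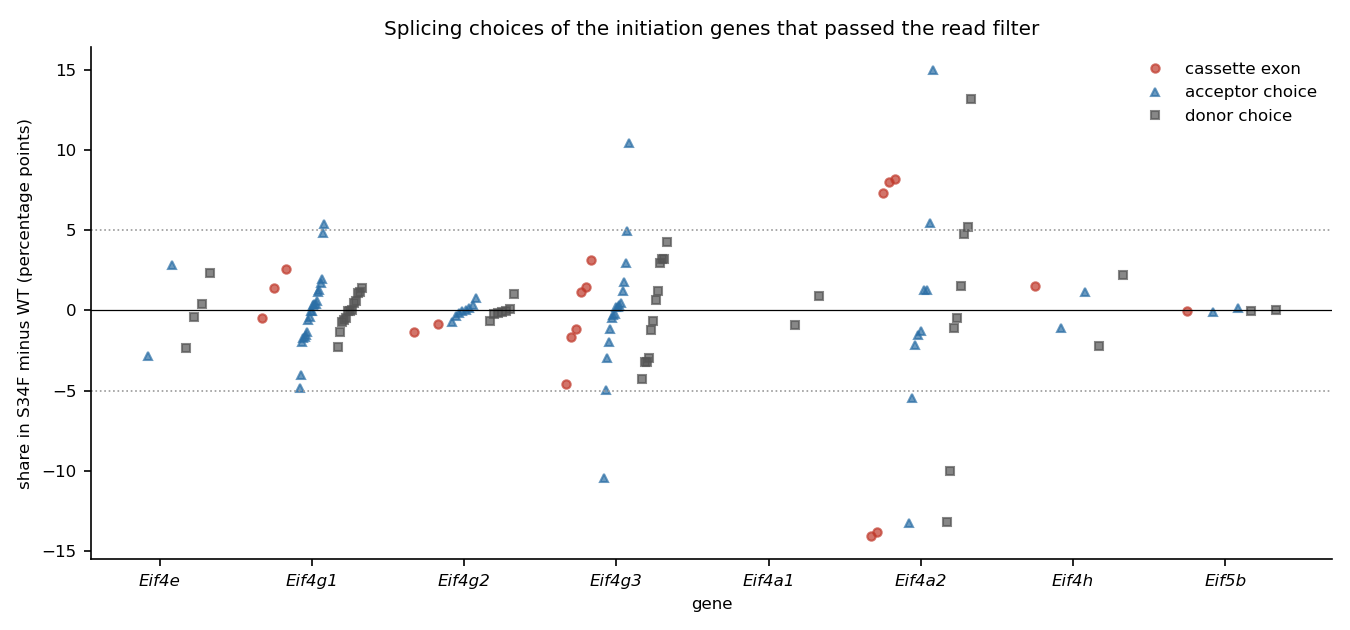
Difference of the mean share, S34F minus WT, in percentage points, for every splicing choice of the genes that passed the read filter, by gene and kind of choice, with dotted lines at 5 points either way. Eif4a2 holds the extremes, from -14.1 to 15.0 points, while all choices of Eif4a1, Eif4e, Eif4g2, Eif4h and Eif5b lie within 5 points of 0.

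The choice with the largest difference in these genes was the skipping junction over a 140 nt coding exon of Eif4a2. The exon lies at chr16:23109193-23109332, is coding in 4 annotated transcripts, and was itself named after its values were seen. Its sequence is shown because its loss sets the reading frame. Capitals mark an inner CAG that a rare form uses as its acceptor.
Eif4a2 140 nt exon: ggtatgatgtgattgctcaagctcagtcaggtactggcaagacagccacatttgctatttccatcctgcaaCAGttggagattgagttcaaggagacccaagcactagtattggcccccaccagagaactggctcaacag

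The acceptors that compete here are the one before this exon and the one before the next exon. Each is shown as 20 intron and 10 exon bases, with the last 3 intron bases in capitals, at chr16:23109173-23109202 and chr16:23110038-23110067 on the plus strand.
Eif4a2 140 nt exon, acceptor: atgtatcctacttttttTAGggtatgatgt
Eif4a2 acceptor after the 140 nt exon: ctaccatttttggctttTAGatccaaaagg
Both end in TAG, so the base before the AG is T at the exon that is skipped and at the exon that is joined in its place.

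The junction into the exon was read 873, 638 and 661 times in S34F, against 964, 1539 and 1338 times in WT, and the junction out of it 947, 800 and 801 times in S34F, against 1120, 1732 and 1477 times in WT. The skipping junction was read 808, 707 and 793 times in S34F, against 610, 839 and 804 times in WT. Inclusion was 53.0, 50.4 and 48.0% in S34F libraries, against 63.1, 66.1 and 63.6% in WT libraries. The S34F libraries were all lower than the WT libraries, at 50.5 ± 2.50% and 64.3 ± 1.604% (SD, n = 3 each), a difference of -13.8 points that ranged from -15.1 to -12.6 when any 1 library was left out. It was -10.1 points between the male libraries and -15.7 points within the female ones. Of the reads leaving the upstream exon, the skipping junction took 47.4, 52.0 and 53.8% in S34F, against 37.3, 33.7 and 37.3% in WT, a difference of 15.0 points. For comparison, 95% of all 8595 cassette exons differed by at most 12.7 points. The DESeq2 call of this exon was lost when any library was left out. DESeq2 called an Eif4a2 acceptor choice without WT replicate 3, where it called 0.575% of all acceptor choices. It called an Eif4a2 donor choice without WT replicate 1, where it called 1.61% of all donor choices.

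Scaled to all junction reads, the junction out of the exon had 19.8 junction CPM in S34F and 23.2 in WT, while the skipping junction had 17.9 in S34F and 12.1 in WT. Junctions further along the gene, such as that from the exon after the skipped one, had 40.9 junction CPM in S34F and 39.0 in WT. The group means of the junctions around the exon thus differed in opposite directions, and the mean of the junction after it differed less than either. By library, the skipping junction had 18.1, 17.2 and 18.5 in S34F, against 13.1, 13.4 and 9.72 in WT, without overlap. The junction out of the exon had 21.2, 19.5 and 18.6 in S34F, against 24.1, 27.7 and 17.9 in WT. For that junction the groups overlapped, with WT replicate 3 the lowest library. The second exon called by DESeq2, a 66 nt form at chr16:23109267-23109332 that starts at the inner CAG, is not separate from this one. The junction into it was read 0, 1 and 2 times in S34F, against 52, 89 and 0 times in WT, and the rest of its inclusion reads are those of the 140 nt exon's downstream junction, with -14.1 points from both junctions and -5.68 points from the upstream junction alone.

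The 140 nt exon is not a multiple of 3, and joining its neighbours in the coding transcript used here shifts the frame. The full reading frame has 407 codons. With the exon skipped it ends after 96 codons at a TGA at chr16:23110138-23110140, which lies 648 nt before the last exon junction. The spliced sequence is shown from the last 18 bases of the upstream exon (chr16:23108907-23108924) through the next exon (chr16:23110058-23110140) to that stop, in capitals.
Eif4a2 skipping junction to the first stop: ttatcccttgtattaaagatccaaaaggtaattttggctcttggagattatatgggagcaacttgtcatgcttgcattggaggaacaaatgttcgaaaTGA
The junction is annotated in 8 transcripts, which include protein-coding, nonsense-mediated decay and retained-intron types.

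**Figure D4:**
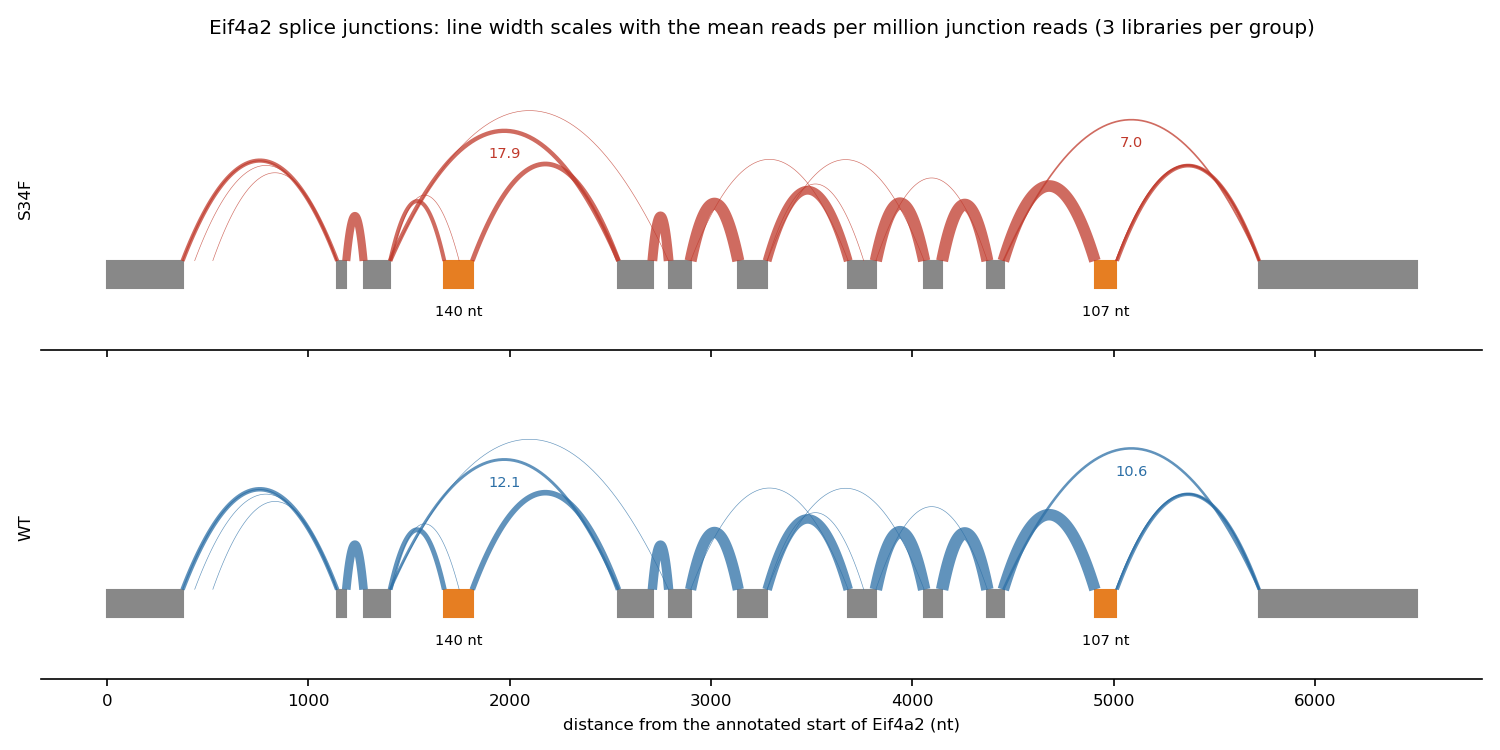
Splice junctions of Eif4a2 in S34F (above) and WT (below), drawn as arcs over the exons of the coding transcript plus the 107 nt exon, against the distance from the annotated gene start in nt. Line width scales with the mean junction CPM of 3 libraries, and junctions too rare for that scale have the thinnest line. The arc over the 140 nt exon is wider in S34F (17.9 against 12.1), and the arc over the 107 nt exon is wider in WT (7.0 in S34F against 10.6 in WT).

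A further alternative exon of Eif4a2 lies just before the last exon and differed in the other direction. It starts at chr16:23112424 and ends, by 3 donors, after 103, 107 or 111 nt, the 111 nt form having most reads of all choices in the gene and the 107 nt form, at chr16:23112424-23112530, being the annotated one. Here both competing acceptors end in CAG, at chr16:23112404-23112433 and chr16:23113220-23113249 on the plus strand. The capitals mark the last 3 intron bases and, in the exon, a stop codon.
Eif4a2 107 nt exon, acceptor: agactttttaaaaaataCAGgagtcgaTAG
Eif4a2 last exon, acceptor: ggtttctttctcttacaCAGaattggcaga
The TAG at chr16:23112431-23112433 is in frame after 362 codons and lies 97 nt before the last exon junction, and the 107 nt exon is annotated in a nonsense-mediated decay transcript.

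The 3 forms share the junction into the exon, so an inclusion value computed with any one donor also counts reads of the other forms. Computed with the 107 nt donor, inclusion was 84.0, 79.9 and 77.3% in S34F, against 75.8, 69.5 and 71.8% in WT. The means were 80.4 ± 3.40% and 72.4 ± 3.21% (SD, n = 3 each), a difference of 8.03 points, and every S34F library was above every WT library, with S34F replicate 3 close to WT replicate 1. Computed with the 111 nt donor, it was 82.0 ± 3.51% in S34F and 74.7 ± 3.14% in WT. Of the reads entering the last exon, the 107 nt donor alone took 27.1, 28.3 and 29.8% in S34F, against 27.7, 24.9 and 16.95% in WT, and the 111 nt donor 53.5, 48.9 and 44.6% in S34F, against 43.3, 38.9 and 50.5% in WT. The groups overlapped for each donor taken alone. Reads over the exon fell into 3 classes that did not balance. In S34F 2361, 1884 and 1991 reads entered the exon and 1199, 957 and 1054 left it by any of the 3 donors, against 2297, 2956 and 3840 entering and 1112, 1379 and 1789 leaving in WT. Reads leaving were 51.5 ± 1.24% of those entering in S34F and 47.2 ± 1.03% in WT, and the annotation holds a transcript in which this exon runs on as the last one. The skipping junction was read 262, 281 and 354 times in S34F, against 434, 766 and 842 times in WT. Counted by reads entering alone, inclusion was 87.3 ± 2.57% in S34F and 81.8 ± 2.35% in WT, and counted by reads leaving alone 78.1 ± 3.67% in S34F and 68.1 ± 3.82% in WT. The direction was the same by every count, but the size of the difference ranged from 5.46 points by all reads entering to 14.8 points by reads leaving at the 107 nt donor alone. Skipping of the 140 nt exon and inclusion of the exon before the last, its 3 donors counted together, both end the Eif4a2 frame early. Each took a larger share in S34F.

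**Figure D5:**
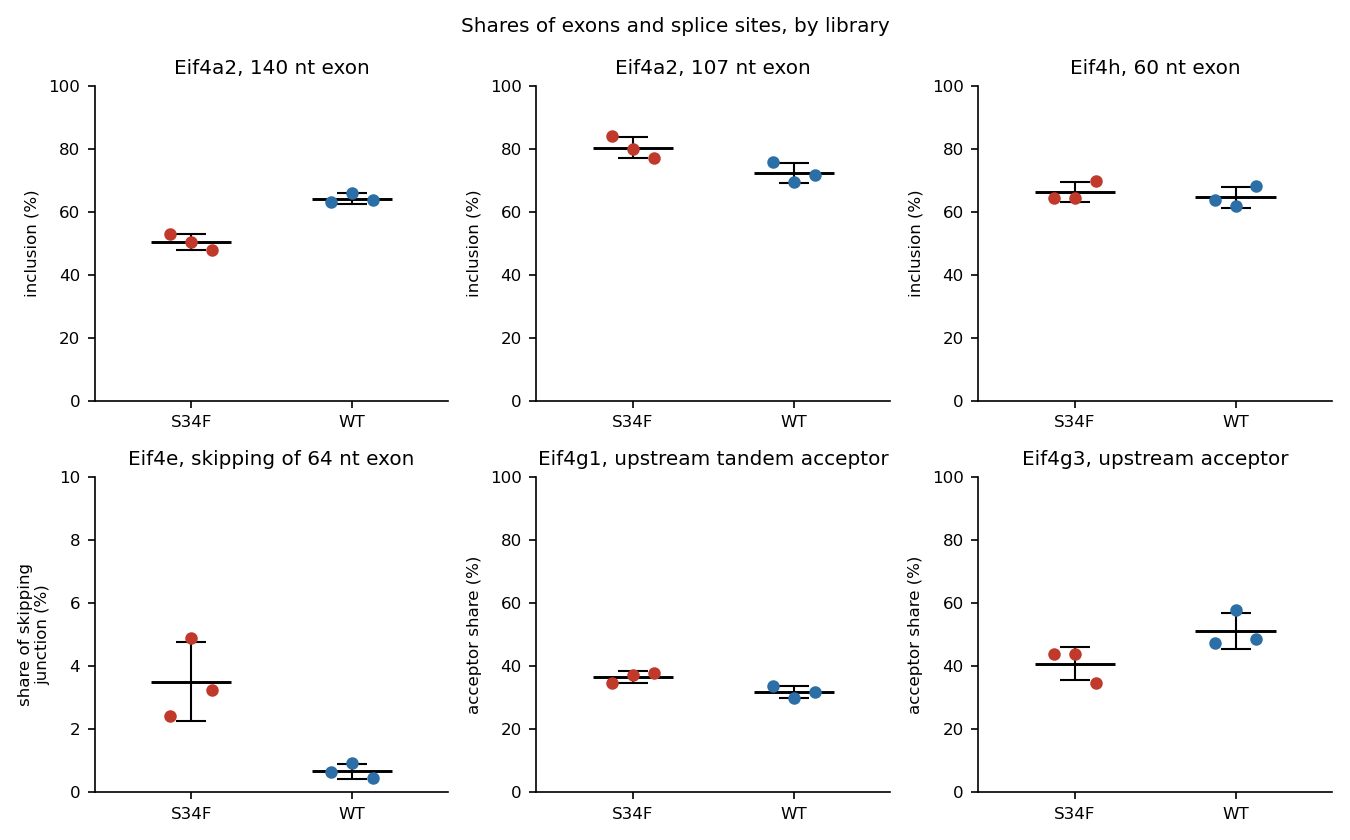
Shares per library, S34F in red and WT in blue, with the mean (thick bar) and SD (whiskers) of 3 libraries per group; the Eif4e panel runs to 10%, and the Eif4a2 107 nt panel counts the entering reads that its 3 donors share. The groups are separated in all panels but Eif4h, and the Eif4a2 140 nt exon shows the widest gap, at 50.5% against 64.3%.

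Eif4e showed a rare skipping event that was named after its values were seen. A 64 nt coding exon at chr3:138213227-138213290 is skipped by a junction that joins annotated exon ends but is found in no annotated transcript. That junction was read 26, 37 and 30 times in S34F, against 6, 8 and 4 times in WT, although the WT libraries were deeper. Of the reads leaving the upstream exon it took 2.41, 4.89 and 3.24% in S34F, against 0.643, 0.932 and 0.446% in WT. Every S34F library was above every WT library, at 3.52 ± 1.26% and 0.674 ± 0.244% (SD, n = 3 each), and the difference was 1.77 points between the male libraries and 3.38 points within the female ones. The acceptor of the skipped exon, at chr3:138213207-138213236, ends in TAG and that of the next exon, at chr3:138213837-138213866, in CAG, both on the plus strand, with the last 3 intron bases in capitals.
Eif4e 64 nt exon, acceptor: tattattttcttttaccTAGtctatacaac
Eif4e acceptor after the 64 nt exon: gctgccttctcctcctgCAGgacgggattg
Skipping shifts the frame of 217 codons, which then ends after 92 codons at a TGA 196 nt before the last exon junction. The joined sequence runs from chr3:138210701-138210718 into chr3:138213857-138213914, with that stop in capitals.
Eif4e skipping junction to the first stop: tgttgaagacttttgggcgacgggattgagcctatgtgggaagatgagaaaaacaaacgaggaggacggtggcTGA
In the authors' deposited table this junction has a log2 fold change of 2.54 and an adjusted p of 0.00434. The DESeq2 calls of this acceptor choice remained without WT replicate 2, where DESeq2 called 1.25% of all acceptor choices. They were lost without any other single library. The same skipping passed the filter as a cassette exon without WT replicate 1. There DESeq2 called it, and 1.75% of all exons.

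In Eif4g1 the largest difference was at the donor of an untranslated exon near the gene's start, chr16:20672949. Its main junction, to a 57 nt exon at chr16:20673672-20673728, took 94.8, 96.2 and 95.1% of the donor's reads in S34F, against 89.1, 90.5 and 90.3% in WT, at means of 95.4 ± 0.743% and 89.97 ± 0.782%. Every S34F library was above every WT library. Among the donor's other junctions is an annotated one that passes over 4 annotated exons to the acceptor at chr16:20675803. It was read 0, 0 and 0 times in S34F, against 21, 31 and 66 times in WT, which is 3.33, 3.73 and 4.98% of the donor's reads. The 0 of 1644 reads in S34F allow a share of up to 0.182%, so the pooled WT share of 4.23% was at least 23.2-fold higher in WT. This bound covers counting error alone. Rare junctions at 0 in single libraries were found elsewhere in these genes: of the 229 junctions, 13 had at least 20 reads in some library and 0 in another, 5.68% against 3.68% of all junctions. A neighbouring Eif4g1 junction into the same acceptor, from chr16:20674387, was read 33, 36 and 0 times in S34F, against 0, 36 and 0 times in WT. Among the 13, the 4-exon junction was the one at 0 in a whole group. Of the 5589 such junctions in the whole series, 153 were at 0 in all S34F libraries and 63 in all WT libraries.

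Further along Eif4g1, a pair of acceptors at chr16:20681807 and chr16:20681810 lies 3 nt apart. The window at chr16:20681787-20681816, plus strand, has TAG and CAG in tandem, both in capitals.
Eif4g1 tandem acceptors: tgtcttcatcccttgtcTAGCAGgctggcc
The upstream site, after TAG, took 34.6, 37.4 and 38.0% of reads in S34F, against 33.7, 30.0 and 31.8% in WT, with means of 36.7 ± 1.80% and 31.9 ± 1.83% (SD, n = 3 each). The S34F libraries were all higher, though the gap of 0.936 points between the male libraries was far smaller than the 6.76 points within the female ones. This choice was named after its values were seen. The Eif4g1 choice with most reads, the acceptor at chr16:20686224, was used in 99.9, 99.7 and 99.8% of reads in S34F, against 99.9, 96.7 and 96.8% in WT. There S34F and WT replicate 1 were alike, and WT replicates 2 and 3 used a site 6 nt downstream more often.

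Eif4g3 was covered by fewer reads, 126 to 156 per library at the choice that differed most. Its acceptor at chr4:137736405, which lies 57 nt upstream of the acceptor at chr4:137736462, took 43.8, 43.8 and 34.8% in S34F, against 47.4, 57.9 and 48.6% in WT. The means were 40.8 ± 5.19% and 51.3 ± 5.76%, a difference of -10.5 points, which was -3.60 points between the male libraries and -13.9 points within the female ones. The windows are at chr4:137736385-137736414 and chr4:137736442-137736471 on the plus strand, with the last 3 intron bases in capitals.
Eif4g3 upstream acceptor: taaatctacaacacctaTAGatgccttacg
Eif4g3 downstream acceptor: ctctcctctgcaacctcCAGcaccttcagg
A 98 nt coding exon of Eif4g3 at chr4:137659230-137659327, named after its values were seen, was included at 91.7, 91.9 and 93.8% in S34F, against 96.7, 95.3 and 99.2% in WT. Its acceptor, shown at chr4:137659210-137659239 on the plus strand, also has TAG as its last intron bases, in capitals.
Eif4g3 98 nt exon, acceptor: attttgttctgatccctTAGgaacgccttt

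Eif4h has a 60 nt coding exon on the minus strand at chr5:135100311-135100370, a multiple of 3, so the frame of the helicase cofactor has 248 codons with it and 228 without. The exon is shown in capitals, and its acceptor at chr5:135100361-135100390 and the next at chr5:135097947-135097976 with the last 3 intron bases in capitals.
Eif4h 60 nt exon: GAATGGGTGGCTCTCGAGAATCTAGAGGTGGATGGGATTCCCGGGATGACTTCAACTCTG
Eif4h 60 nt exon, acceptor: ttgtgtgtgtgtatcctCAGgaatgggtgg
Eif4h acceptor after the 60 nt exon: gactctgtcttctttccTAGgctacaggga
Inclusion was 64.3, 64.4 and 69.9% in S34F, against 63.9, 61.7 and 68.3% in WT. The groups overlapped, at 66.2 ± 3.18% and 64.6 ± 3.37% (SD, n = 3 each), and the difference of 1.55 points was -0.28 points without S34F replicate 3. It was 0.435 points between the male libraries and 2.11 points within the female ones. The largest Eif4h difference, 2.21 points in the donor used to reach the exon after it, overlapped as well. Both differences were smaller than the spread between libraries.

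The remaining genes varied little. In Eif4g2 no choice differed by more than 1.32 points, over 2 cassette exons, 8 acceptor choices and 7 donor choices, and none separated the groups. In Eif5b the largest difference was 0.128 points and in Eif4a1 0.907 points, each over the few choices with enough reads.

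Read against the base before the acceptor AG, the member exons fell on both sides. Over all 8595 cassette exons, the 34.1% with T there had a median difference of -2.40 points and 78% were lower in S34F, and the 57.1% with C had a median of 0.34 points and 44.6% were lower. Among the 18 exons of these genes, 4 of the 5 with T were lower in S34F, in Eif4a2, Eif4g2 and Eif4g3, and 5 of the 13 with C were lower. Outside the cassette exons, the base was read only at choices named above for their difference or after their values were seen. Of these, the Eif4e exon and the Eif4g3 upstream acceptor with T had smaller shares in S34F. The Eif4g1 upstream tandem site with T had a larger share. These 18 exons overlap in part and come from 6 genes, and the bases are a description.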

How the data were processed

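RNA from sorted common myeloid progenitors was depleted of ribosomal RNA, made into TruSeq stranded libraries and sequenced in 100 bp pairs, per the labels' protocols. The submitters' processing notes name mm9, Bowtie2 2.1.0, TopHat2 2.0.8, HTSeq 0.5.4p1 and DESeq2 1.6.1, with no settings. The deposited tables hold raw read counts per gene and per junction for 6 libraries, and the authors' own log2 fold changes and adjusted p-values. The deposited junction table also holds the authors' FPKM, fold change ratio, mean-count signal and DEXSeq test score columns, which were not used. Junctions are given by the exon bases that flank the intron. Members and lists were chosen with earlier results of these data known.

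Gene counts were scaled by TMM and tested with edgeR 4.0.16 quasi-likelihood fits over all genes, with Benjamini-Hochberg adjustment at 0.05. Inclusion was the mean of the 2 inclusion junctions over that mean plus skipping reads, and choices were tested by the interaction of form and group with library terms. DESeq2 1.42.0, limma 3.58.1 and the alternatives of the closing section were also run. Choices named were the largest difference and the most reads in Eif4a2, Eif4h and Eif4g1, and any of at least 5 points in the other genes. Others are said to be named after their values were seen. With 3 libraries against 3, an exact permutation test cannot go below 0.1. Counting bounds cover counting error alone. Annotation and sequence came from mm9, where 99.77% of gene IDs matched. Scripts were tested on simulated data.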

Additional observations from a re-analysis of the deposited data

How the results depend on the processing

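Of 170 member log2 fold changes over the alternatives, 164 kept their sign, and the other 6 belong to Eif4a1 and Eif4ebp1. Of 90 named share differences, 89 kept their sign, the exception being the Eif4h 60 nt exon at -0.28 points without S34F replicate 3. This count says little. Where the groups did not overlap, as for most named choices, leaving out 1 library could not change the sign. Many of the choices were also named for their difference, and several count the same reads. Single junctions moved 3 Eif4a2 values: 11.04 points for the 111 nt and 14.8 for the 107 nt exon by the downstream junction, and -5.68 for the 66 nt exon by the upstream one. Counts over all features depended on the tool. Of 13905 genes edgeR called 0 (1265 at an unadjusted p under 0.05), 5 with a replicate block and 0 to 1172 leaving out a library, with 1172 without WT replicate 1, while DESeq2 called 96. edgeR called 0 of 8595 cassette exons (876 unadjusted) and DESeq2 107. edgeR called 0 of 29709 acceptor choices (2227 unadjusted), DESeq2 376 and limma 59. edgeR called 3 of 30084 donor choices (1927 unadjusted), 0 with the replicate block and 0 to 5 leaving out a library, DESeq2 242 and limma 66. Alternatives chosen after seeing the data were DESeq2 with the replicate block (445 genes, 22 exons, 101 acceptor and 59 donor choices) and DESeq2 without each library in turn. Without S34F 1, 2, 3 and WT 1, 2, 3 in that order it called 68, 55, 90, 2502, 78 and 43 genes, then 39, 19, 59, 150, 103 and 30 exons, then 177, 123, 175, 697, 371 and 171 acceptor choices, then 102, 104, 132, 482, 194 and 88 donor choices. With the replicate block DESeq2 called Eif5b and 4 of the 64 pathway genes (Eif1a, Eif2s2, Larp1 and Mknk1), where it called 3.2% of genes. Of the 129 choices it called 1 acceptor and 1 donor choice of Eif4g1, and none of Eif4a2 or Eif4e. In that setting it called 0.34% of all acceptor and 0.196% of all donor choices. Without each library in turn DESeq2 called at least 1 acceptor choice of Eif4g1, where it called 0.412 to 2.36% of all acceptor choices. limma called 1 acceptor and 1 donor choice of Eif4g1, where it called 0.199% and 0.219% of all such choices. Without WT replicate 1, edgeR called Eif4g3 and Eif5b and DESeq2 called 6 of the 10 genes, where they called 8.42% and 18% of all genes. Same-numbered libraries correlated at 0.29, 0.36 and 0.04 in their deviations. S34F replicates 1 and 2 correlated best with the same-numbered WT library, and S34F replicate 3 with WT replicate 1, at 0.16. The series states no covariate, so the replicate number was left out of the main fits and run as the replicate block.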
